A study of Mus musculus with 6 samples.

Results

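The genes described here are the sterol efflux transporters of the liver, the liver X receptors (LXR) and their partners in cholesterol export, measured in mouse liver after 2 days on a high fat diet. The named set holds 10 genes, Abcg5, Abcg8, Abcg1, Abca1, Nr1h2, Nr1h3, Mylip, Scarb1, Soat2 and Lcat. A gene was measured where a probe set carried its symbol alone in the platform annotation, which gave 8 of the 10, out of 19938 genes measured in all. Nr1h2 and Soat2 were not analysed here. Each of the 8 genes had 1 probe set.

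The HFD group was C57BL/6 mice, an inbred laboratory strain, with free access to a high fat diet for 2 days, and the RD group was C57BL/6 mice on a regular diet for the same time. Total RNA of frozen liver was hybridised to 1 array per sample, with 3 biological replicates per diet. The letters NI stand in all 6 sample titles with no explanation, and the sources used here do not give age, sex or diet composition. The labels do not say whether the replicates came from separate animals, so p-values measure only the spread between these samples. The comparison of the diets asks how the liver transcriptome differs after a short period of high fat feeding. Albumin (Alb), the main secreted protein of hepatocytes, read 14.42 log2 units on average on HFD and 14.42 on RD, near the top of the range of the arrays (14.86). Array medians lay between 7.06 and 7.11. With 3 arrays per diet, the number of arrays sets how precise each value can be.

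Liver X receptors are nuclear receptors that bind oxysterols, oxidised forms of cholesterol, and act on DNA with the retinoid X receptors. When cholesterol accumulates in a cell, they raise transcription of genes that move it out. In hepatocytes the transporters ABCG5 and ABCG8 form a heterodimer in the canalicular membrane that secretes cholesterol and plant sterols into bile. ABCA1 passes cholesterol and phospholipid to apolipoprotein A-I to form high density lipoprotein (HDL), ABCG1 passes cholesterol to HDL, and both are also active in macrophages.

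Abcg5 and Abcg8 lie head to head on mouse chromosome 17, and their shared promoter is shown because both genes changed together on these arrays. In RefSeq (GRCm38.p6) the Abcg5 start, on the minus strand, is at 84683011 and the Abcg8 start, on the plus strand, at 84683121, so that 110 bases separate them. The window of 250 bases before and 50 after each start was used, and the windows of the pair share 209 bases. The Abcg8 window, chr17:84682871-84683170 on the plus strand, is printed below with each GATA box (AGATAA, on either strand, so that TTATCT is a match on the other strand) in capitals. The Abcg5 start is base 141 of it and the Abcg8 start is base 251. For Abca1, the window chr4:53159846-53160145 on the minus strand is printed with the bases of a spaced repeat in capitals, a match to GGTTANNNNCGGTCA on the strand opposite to the gene. This repeat has the form that LXR and its partner bind in the human ABCA1 promoter.
Abcg8: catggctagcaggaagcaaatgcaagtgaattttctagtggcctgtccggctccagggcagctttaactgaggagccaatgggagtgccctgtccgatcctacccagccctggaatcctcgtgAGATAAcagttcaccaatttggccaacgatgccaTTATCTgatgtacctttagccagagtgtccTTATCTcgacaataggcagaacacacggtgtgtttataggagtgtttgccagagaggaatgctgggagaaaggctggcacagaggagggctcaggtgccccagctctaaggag
Abca1: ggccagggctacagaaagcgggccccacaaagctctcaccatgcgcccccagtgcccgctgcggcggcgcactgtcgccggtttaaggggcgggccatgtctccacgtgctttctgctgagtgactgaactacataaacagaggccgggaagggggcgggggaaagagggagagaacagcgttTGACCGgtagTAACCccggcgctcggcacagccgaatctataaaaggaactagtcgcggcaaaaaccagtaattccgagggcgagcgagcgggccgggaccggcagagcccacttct

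The stretch between the Abcg5 and Abcg8 starts held 2 GATA boxes, and 1 more lay just inside the Abcg5 transcript. From the Abcg8 start the boxes began at bases -127, -93 and -63. A GATA box occurred in 11.2% of the 32851 promoter windows in the RefSeq table, and 3 or more occurred in 0.107% of them. The only other of the 7 genes with a window to hold one was Lcat, with 1. The repeat in the Abca1 window spanned bases -67 to -53 from the start and occurred in 0.0122% of all windows; the motif was chosen after the sequence had been read. The ideal LXR repeat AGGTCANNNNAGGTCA, on either strand, matched none of these 7 genes' windows and 0.0152% of all windows. The LRH-1 type site TCAAGGTCA and the sterol regulatory element TCACCCCAC, also searched on both strands, matched none of them either and 0.423% and 0.551% of all windows. Exact matches in these windows alone were sought. Sites that differ from these sequences, or that lie farther from the starts, were not searched. RefSeq gives Abcg8 a second start at 84676302, inside Abcg5 on the opposite strand, whose window held no GATA box. The windows of Abcg1, Scarb1 and Soat2 were not used here.

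**Figure D1:**
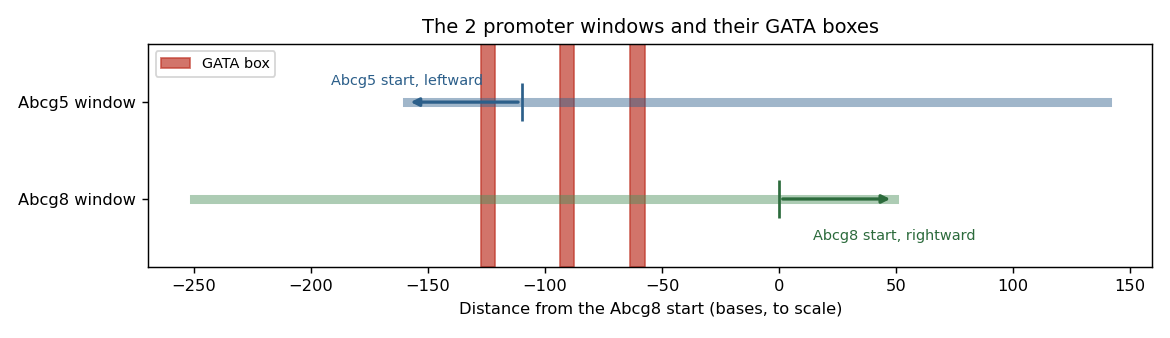
Positions of the Abcg5 and Abcg8 promoter windows and their GATA boxes, with distance in bases from the Abcg8 start on the horizontal axis. Bars are the windows, arrows give the direction of transcription, and red bands are the 3 GATA boxes, of which 2 lie between the starts, which are 110 bases apart.

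Of the 8 measured genes 4 rose on HFD and 0 fell at an adjusted p under 0.05 (limma with Benjamini-Hochberg adjustment over all genes), while 5.35% of all genes passed, with 3.11% higher and 2.24% lower. At an unadjusted p under 0.05, 3926 genes passed in all. The genes that rose were the transporter genes Abcg1, Abcg5, Abcg8 and Abca1. The receptor gene Nr1h3 and the genes Mylip, Scarb1 and Lcat did not pass. In 5 of the 8 genes the 3 HFD values lay apart from the 3 RD values, which held for 25.7% of all genes. The median log2 difference was 0.44, against -0.00292 over all genes. Because the samples are whole liver, a change in the number of cells of a type and a change in RNA per cell cannot be told apart.

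**Figure D2:**
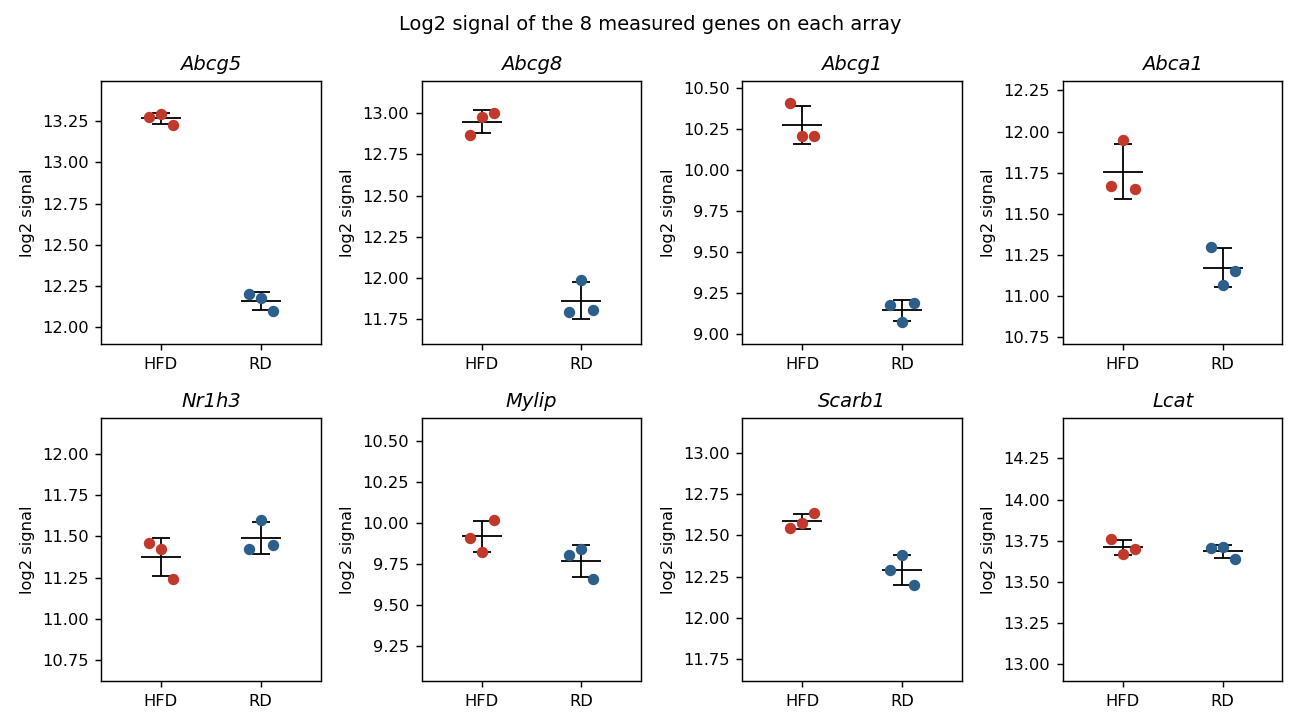
Log2 signal (vertical axes) of the 8 measured genes on each of the 3 HFD and 3 RD arrays, with each panel spanning the same range of log2 units. Points are arrays, the long tick is the mean and the bars are the SD; Abcg5, Abcg8, Abcg1, Abca1 and Scarb1 show no overlap between the diets.

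The sterol pump genes of the canalicular membrane both rose about 2-fold. Abcg5 (probe set 10453318), a subunit of the pump, read 13.28, 13.30 and 13.23 log2 units in HFD livers, against 12.20, 12.18 and 12.09 in RD livers. Every HFD array lay above every RD array, and the arrays within a diet were close together. Abcg5 averaged 13.27 ± 0.03 in HFD and 12.16 ± 0.06 in RD (SD, n = 3 each), a log2 difference of 1.11 with a 95% interval of 0.96 to 1.26 (limma adjusted p = 0.000150). On the linear scale this was 2.16-fold, and 0.406% of all genes had a larger difference in either direction. Abcg8 (probe set 10447239), its obligate partner, read 12.87, 12.97 and 13.00 in HFD livers, against 11.79, 11.99 and 11.80 in RD livers. The diets again lay apart, with RD replicate 2 the highest of its group. Abcg8 averaged 12.95 ± 0.07 in HFD and 11.86 ± 0.11 in RD (SD, n = 3 each), a log2 difference of 1.09 with a 95% interval of 0.91 to 1.27 (limma adjusted p = 0.000391), or 2.13-fold. The annotated transcripts of this pair overlap in part on opposite strands, and the position of the probes was not used here.

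Both efflux genes for HDL rose. Abcg1 (probe set 10443730) read 10.41, 10.21 and 10.21 in HFD livers, against 9.18, 9.07 and 9.19 in RD livers. HFD replicate 1 stood highest, and the lowest HFD array was still about 1 log2 unit above the highest RD array. Abcg1 averaged 10.27 ± 0.11 in HFD and 9.15 ± 0.06 in RD (SD, n = 3 each), a log2 difference of 1.13 with a 95% interval of 0.95 to 1.31 (limma adjusted p = 0.000317), or 2.19-fold. Abca1 (probe set 10512949) read 11.67, 11.95 and 11.65 in HFD livers, against 11.30, 11.06 and 11.15 in RD livers. The diets did not overlap, but the arrays within each were more scattered than for Abcg5. Abca1 averaged 11.76 ± 0.17 in HFD and 11.17 ± 0.12 in RD (SD, n = 3 each), a log2 difference of 0.58 with a 95% interval of 0.35 to 0.81 (limma adjusted p = 0.018), or 1.498-fold. The Abca1 call was lost without RD replicate 2 (adjusted p = 0.070) or RD replicate 3 (adjusted p = 0.053), while Abcg5, Abcg8 and Abcg1 passed each time 1 array was removed (largest adjusted p = 0.0034).

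The changes of the transporters were set against each other as per-array log2 differences, for 6 pairs. Mean HFD signals were 13.27 for Abcg5, 12.95 for Abcg8, 10.27 for Abcg1 and 11.76 for Abca1. Whether probe sets at such different signals respond alike was not tested. Abcg5 minus Abcg8 averaged 0.32 in HFD and 0.30 in RD, so the pair changed by amounts that differed by 0.02 (exact two-sided permutation test, p = 0.8, adjusted p = 0.96). Abcg5 minus Abcg1 changed by -0.02 (exact p = 0.7, adjusted p = 0.96) and Abcg8 minus Abcg1 by -0.04 (exact p = 1, adjusted p = 1). For these 3 pairs the per-array values of the diets overlapped, and the direction turned when single arrays were left out. Against Abca1, the per-array log2 difference was higher in HFD than in RD by 0.53 for Abcg5, 0.51 for Abcg8 and 0.54 for Abcg1, and in each of these pairs the 3 HFD values lay above the 3 RD values. Each had an exact p of 0.1 (adjusted p = 0.2), the smallest this permutation test can give with 3 against 3 arrays, so it could not pass the threshold in this test.

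The oxysterol receptor and the other LXR-regulated member gave no call. Nr1h3 (probe set 10484987), which encodes LXR alpha, the main LXR of hepatocytes, read 11.46, 11.42 and 11.24 in HFD livers, against 11.42, 11.60 and 11.45 in RD livers. The diets overlapped, and the log2 difference was -0.12 with a 95% interval of -0.31 to 0.07 (limma adjusted p = 0.508). Mylip (probe set 10404874), an LXR target whose product, the ubiquitin ligase IDOL, marks lipoprotein receptors for degradation, read 9.91, 9.83 and 10.02 in HFD livers, against 9.80, 9.84 and 9.66 in RD livers. Its diets overlapped too, and the log2 difference was 0.15 with a 95% interval of -0.04 to 0.33 (limma adjusted p = 0.363). As folds, the intervals ran from 0.806 to 1.05 for Nr1h3 and from 0.976 to 1.26 for Mylip.

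Scarb1 and Lcat act on HDL cholesterol. Scarb1 (probe set 10533929), the receptor SR-BI that takes cholesteryl ester from HDL into hepatocytes, read 12.54, 12.58 and 12.63 in HFD livers, against 12.29, 12.38 and 12.20 in RD livers. All HFD arrays lay above all RD arrays, by a small margin. Scarb1 averaged 12.59 ± 0.05 in HFD and 12.29 ± 0.09 in RD (SD, n = 3 each), a log2 difference of 0.30 with a 95% interval of 0.13 to 0.46, which fell just short of the threshold (limma adjusted p = 0.054). It passed after quantile normalization (adjusted p = 0.044), with array weights (adjusted p = 0.047), among the brighter genes (adjusted p = 0.024) and with an intensity trend (adjusted p = 0.012). Under the other 11 of 15 alternatives it was not called, with an adjusted p of 0.051 to 0.153. Lcat (probe set 10581388), which encodes the secreted enzyme that esterifies cholesterol on HDL, read 13.76, 13.67 and 13.70 in HFD livers, against 13.70, 13.71 and 13.64 in RD livers. Its diets overlapped, and the log2 difference was 0.02 with a 95% interval of -0.12 to 0.17 (limma adjusted p = 0.883), so a change above 1.13-fold lay outside the interval, though at a signal near the top of the array range, where a change may be compressed.

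**Figure D3:**
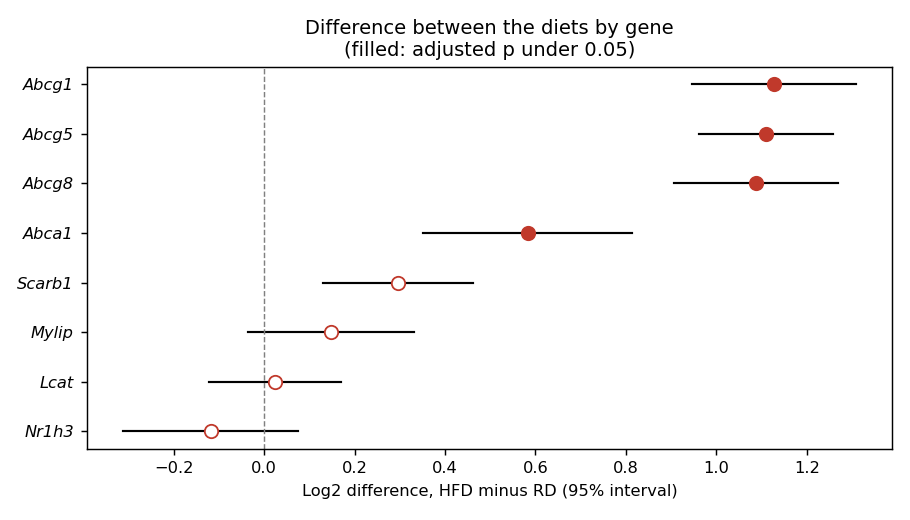
Log2 difference between HFD and RD (horizontal axis) for each measured gene, with its 95% interval from limma as a line. Filled points had an adjusted p under 0.05; Abcg1, Abcg5 and Abcg8 sit between 1.09 and 1.13, Abca1 at 0.58, and the other 4 genes between -0.12 and 0.30.

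Other genes that LXR is known to regulate moved in both directions. Of 16 measured genes 2 rose and 2 fell (Arl4c was not analysed here), with a median log2 difference of 0.12, against -0.00292 over all genes. Over all genes 3.11% rose and 2.24% fell. Srebf1, the factor that drives fatty acid synthesis, read 11.27, 11.43 and 11.37 in HFD livers, against 10.70, 10.67 and 9.79 in RD livers. Its difference was 0.97 ± 0.22 (SE, limma adjusted p = 0.040), and RD replicate 3 stood well below the others. The Srebf1 call passed without that array (adjusted p = 0.0077) and was lost without any other single array (adjusted p up to 0.102). It was also lost with the intensity trend (adjusted p = 0.089), every row tested (0.131), the replicate block (0.051) and the unmoderated model (0.239). Cd5l, a secreted protein of macrophages, rose by 0.85 ± 0.12 (SE, adjusted p = 0.0066). Pltp, the phospholipid transfer protein of plasma, fell by 1.08 ± 0.11 on the log2 scale (SE, adjusted p = 0.0018). Cyp7a1 opens bile acid synthesis and is an LXR target in mice. It averaged 6.71 ± 0.55 in HFD and 11.55 ± 0.55 in RD (SD, n = 3 each). This was the largest difference of the list (-4.84 log2 units, limma adjusted p = 0.000229). The HFD mean of Cyp7a1 lay below the array medians of 7.06 to 7.11. Whether it lay at background is not known, so the size of this difference is uncertain. The lipogenic target genes Fasn (-0.58, adjusted p = 0.068) and Scd1 (0.02, adjusted p = 0.891) did not pass, and both were picked once values were known. Scd1 averaged 14.35 in HFD and 14.33 in RD, near the top of the array range, where a change may be compressed. Without RD replicate 3 the list gave 3 rises and 3 falls, and without each other single array 1 rise and 2 falls.

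Genes that act with LXR or on the Abcg5 and Abcg8 promoter were mostly not called. Among 14 partners and coregulators of LXR 2 rose and 0 fell, against 3.11% and 2.24% of all genes, with a median of 0.00233. Ncor1 was not analysed here. Nr0b2, the receptor SHP that lacks a DNA-binding domain and represses other nuclear receptors, read 11.77, 11.51 and 11.53 in HFD livers, against 10.22, 10.69 and 10.50 in RD livers, a difference of 1.13 ± 0.12 (SE, limma adjusted p = 0.0023). Nrip1, a corepressor of nuclear receptors, rose by 0.48 ± 0.08 (SE, adjusted p = 0.016); its call held without HFD replicate 2 or RD replicate 3 and was lost without HFD replicate 1 or 3 or RD replicate 1 or 2 (adjusted p up to 0.065), when the list gave 1 rise. The retinoid X receptor gene Rxra differed by -0.19 (adjusted p = 0.184) and the coactivator gene Ncoa3 by 0.12 (adjusted p = 0.344). Of 6 factors known to act on expression of Abcg5 and Abcg8, none passed in limma, 0 of them at an unadjusted p under 0.05. Gata6 and Gata4, which bind GATA boxes, differed by 0.19 (adjusted p = 0.376) and -0.04 (adjusted p = 0.852), Nr5a2, which encodes LRH-1, by -0.12 (adjusted p = 0.453), Thrb by -0.11 (adjusted p = 0.461) and Foxo1 by -0.08 (adjusted p = 0.592); Gata4 was picked once values were known.

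**Figure D4:**
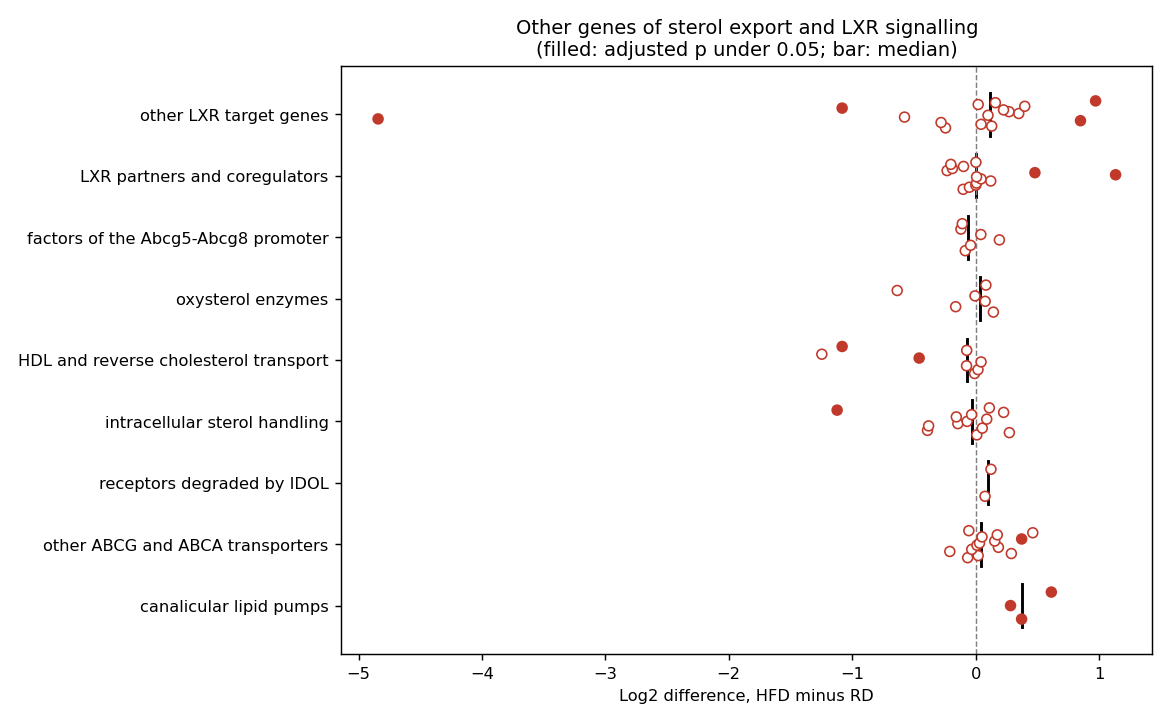
Log2 difference between HFD and RD (horizontal axis) of other genes of sterol export and LXR signalling, grouped by list, with 1 point per gene, spread vertically for visibility. Filled points had an adjusted p under 0.05 and black bars are medians; all 3 canalicular pumps lie to the right of 0, and Cyp7a1 lies far to the left at -4.84.

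The enzymes that make or clear oxysterols, the ligands of LXR, gave no call. Of 6 measured, none passed in limma and 2 had an unadjusted p under 0.05, as did 3926 of all 19938 genes. Cyp7b1, an oxysterol hydroxylase, read 11.37, 11.79 and 10.71 in HFD livers, against 11.88, 11.72 and 12.17 in RD livers, with overlap and a difference of -0.63 (adjusted p = 0.194). Cyp27a1, a mitochondrial sterol hydroxylase, differed by -0.16 (adjusted p = 0.204), Ch25h, a cholesterol hydroxylase, by 0.14 (adjusted p = 0.570) and the sulfotransferase Sult2b1 by 0.08 (adjusted p = 0.595). Inside the cell, 1 of 13 genes of sterol handling fell and 0 rose, against 2.24% and 3.11% of all genes (median -0.03, Soat1 not analysed here). That gene was Stard4, a cytosolic sterol carrier, which averaged 9.25 ± 0.11 in HFD and 10.37 ± 0.15 in RD (SD, n = 3 each; limma adjusted p = 0.000747). The endosomal sterol protein gene Stard3 differed by 0.23 (adjusted p = 0.087), Gramd1c by -0.39 (adjusted p = 0.096) and Gramd1b by 0.27 (adjusted p = 0.102), both of which encode sterol carriers at membrane contacts.

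In the list of HDL and reverse cholesterol transport 2 of 8 genes fell and 0 rose, against 2.24% and 3.11% of all genes. The median was -0.07, and Lipc was not analysed here. Beside Pltp, Apom, an apolipoprotein of HDL, fell by 0.46 ± 0.07 on the log2 scale (SE, limma adjusted p = 0.0099). Lipg, the endothelial lipase, differed by -1.25 ± 0.35 (SE) and did not pass (adjusted p = 0.088), except without HFD replicate 2 (adjusted p = 0.018), when 3 genes of the list fell. Pdzk1, whose product holds SR-BI at the membrane, differed by -0.07 (adjusted p = 0.645). The apolipoprotein A-I gene Apoa1, the acceptor of ABCA1, differed by -0.0081 (adjusted p = 0.964) and was picked once values were known. Apoa1 averaged 14.38 in HFD and 14.39 in RD, near the top of the array range, where a change may be compressed. Of the targets of IDOL, Vldlr and Lrp8 differed by 0.12 and 0.08 (adjusted p = 0.749 and 0.615).

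Canalicular lipid pumps rose beside Abcg5 and Abcg8. Abcb4, which flips phosphatidylcholine into bile, read 12.48, 12.48 and 12.48 in HFD livers, against 12.21, 12.13 and 12.25 in RD livers (0.28 ± 0.06, SE, limma adjusted p = 0.042). Abcb11, the bile salt export pump, rose by 0.37 ± 0.06 (SE, adjusted p = 0.018) and the aminophospholipid flippase gene Atp8b1 by 0.61 ± 0.07 (SE, adjusted p = 0.0033). All 3 of the list passed, against 5.35% of all genes, with a median of 0.37. Leaving out any single array ended the Abcb4 call (adjusted p up to 0.134), the Abcb11 call held without HFD replicate 1 or RD replicate 3 alone (adjusted p up to 0.073), and Atp8b1 passed each time. The count was therefore 2 without HFD replicate 1 or RD replicate 3 and 1 without each other array. Among 14 other transporters of the ABCG and ABCA families 1 rose and 0 fell, against 3.11% and 2.24% of all genes, with a median of 0.04. Abca8b rose by 0.37 ± 0.08 (SE, adjusted p = 0.033), a call that survived the removal of HFD replicate 1 and of no other array (largest adjusted p = 0.113). Abcg3 (0.46, adjusted p = 0.1002), Abca2 (0.29, adjusted p = 0.112) and Abca5 (0.18, adjusted p = 0.188) did not pass.

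Next, 5 genes were sought whose mean-centred log2 values over the 6 arrays lay closest to the mean of Abcg5 and Abcg8. By Euclidean distance to that mean these were the carboxylesterase gene Ces2a (0.248), Tmem141 (0.259), Abcg1 (0.278), Mirt2 (0.290) and Tm4sf4 (0.299). The median distance over the genes searched was 1.37. Abcg5, Abcg8 and predicted genes (symbols of Gm and digits, or ending Rik) were left out of the search. Abcg5 and Abcg8 lay 0.206 from each other, so each lay closer than this to their mean. Ces2a read 12.56, 12.71 and 12.79 in HFD livers, against 11.80, 11.79 and 11.61 in RD livers. Tmem141 read 11.89, 11.94 and 12.09 in HFD livers, against 10.71, 10.72 and 10.71 in RD livers. Mirt2 differed by 1.02 and Tm4sf4 by 0.94 on the log2 scale. In all 5 the diets lay apart, which held for 25.7% of all genes. The search picked genes near a profile in which the diets lie apart, so this followed from the choice. The distance is a description with no test. Ces2a belongs to a family of close copies, so its value is uncertain.

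Of the marker lists, only those of Kupffer cells and cholangiocytes held genes that passed the threshold. For comparison, 3.11% of all genes rose and 2.24% fell. Of 10 markers of Kupffer cells, the resident macrophages, 5 rose and 0 fell (median 0.56), and their summed linear signal was 23332, 16543 and 19494.5 in HFD livers, against 13711, 14111 and 14385 in RD livers. The defining markers Clec4f and Timd4, picked once values were known, differed by 0.29 (adjusted p = 0.119) and 0.67 (adjusted p = 0.016). Cd5l stands both in this list and among the LXR targets. The Kupffer count was 5, 7 and 2 without HFD replicate 1, 2 or 3 and 1, 1 and 2 without RD replicate 1, 2 or 3. Of 4 markers of cholangiocytes, the bile duct cells, all 4 rose (median 0.44; Spp1 was not analysed here), with a summed signal of 1142 to 1300.1 in HFD livers, against 841 to 931 in RD livers. Krt19 rose by 0.70, Epcam by 0.54, Krt7 by 0.33 and Sox9 by 0.29. Their count was 0 or 1 when single arrays were left out. The part of either cell type in the transporter results was not tested.

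**Figure D5:**
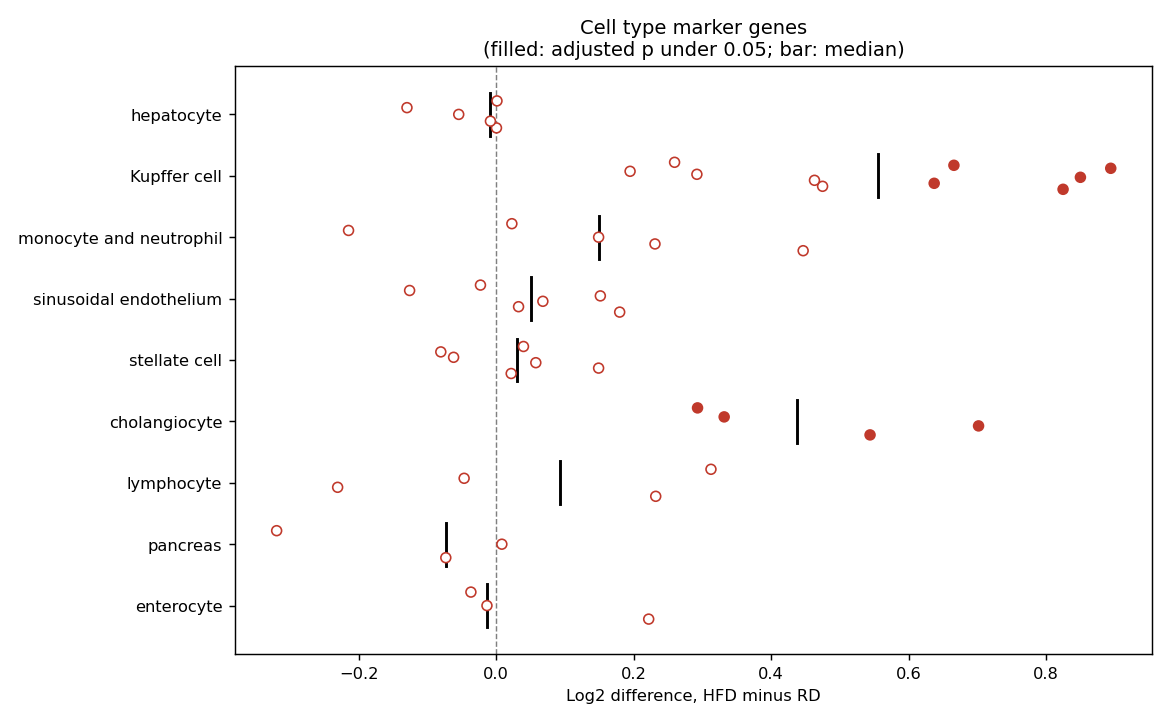
Log2 difference between HFD and RD (horizontal axis) of marker genes of liver cell types and of neighbouring tissues, with 1 point per gene, spread vertically for visibility. Filled points had an adjusted p under 0.05 and black bars are medians; called markers are those of Kupffer cells (5 of 10) and cholangiocytes (4 of 4).

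No marker of hepatocytes was called. Of 5 measured 0 passed in limma and 0 had an unadjusted p under 0.05 (median -0.00825), and their summed signal was 88820 to 91736 in HFD livers, against 92079 to 93001 in RD livers, without overlap. Their mean log2 signals of 13.71 to 14.42 in HFD and 13.72 to 14.42 in RD lie near the highest value on the arrays, 14.86, where a change may be compressed, so this count does not show that their levels were alike. No marker of monocytes and neutrophils (5 measured, sums of 303 to 347 in HFD and 275 to 290.1 in RD), sinusoidal endothelium (6, 11416 to 13122 and 10987 to 11584), stellate cells (6, 11003 to 11659 and 10099 to 10868), lymphocytes (4, 526 to 792 and 545 to 574), pancreas (3, 347 to 365 and 373 to 472) or enterocytes (3, 2528 to 3488 and 2082 to 2849) passed in limma, and 1 of them, the monocyte and neutrophil marker Itgam (0.23), had an unadjusted p under 0.05. By the sums alone, monocyte and neutrophil markers and stellate cell markers lay higher in HFD without overlap, and pancreas markers lower without overlap. Ass1, Ly6c2 and Pnlip of these lists were not analysed here. Whether the dimmest of these markers lie at background is not known, since no detection calls were used.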

How the data were processed

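The authors deposited 1 log2 value per probe set and array for 35512 probe sets, made, per the labels, from liver total RNA after terminal labelling with a GeneChip kit. The sources used here do not give how values were summarised, background-corrected or normalized. The values (2.28 to 14.86) were read as base 2 from their range and used as deposited. No depth applies to arrays.

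Probe sets were named from the platform annotation, which can be old: 21789 had 1 symbol, 1621 several and 12102 were not listed. The brightest single-symbol probe set of each gene by its mean over 6 arrays was kept (19938 genes, 999 with more than 1 probe set). Diet was fitted in limma 3.58.1 (R 4.3.3), with two-sided p-values adjusted by Benjamini-Hochberg over all 19938 genes; the threshold was 0.05, and a difference is HFD minus RD. No filter on dim probe sets was used. Linear marker sums add 2 to the power of each value. Batch effects were not tested, since no scan dates were used.

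Text names the members, up to 4 genes per list with the smallest p and the 5 genes nearest in pattern, with exceptions stated. Some genes of these lists are not reported here. Members and lists were chosen with earlier results of these data known. On simulated data for HFD against RD over 19938 genes, 51% of changes of 0.5 log2 units and 93% of changes of 1 were recovered, and 9 of 153 calls were false. The simulation changed 100 genes by each amount and drew noise for each gene independently. In the real data 1067 genes were called and noise may be shared between genes, so these rates may not carry over.

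Alternatives were quantile normalization, median centring, brighter genes only, the mean of a gene's probe sets, every row tested, array weights, a robust prior with an intensity trend, a replicate block, an unmoderated model and each array left out.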

Additional observations from a re-analysis of the deposited data

How the results depend on the processing

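Under 15 alternatives Abcg5, Abcg8 and Abcg1 stayed higher and past the threshold (adjusted p up to 0.045), and the number of members called higher was 3 to 5, with 0 lower. Abca1 kept its difference of 0.58 but lost its call with every row tested (adjusted p = 0.075), with the replicate block (adjusted p = 0.051) and with the unmoderated model (adjusted p = 0.139); without 1 array it ranged from 0.49 to 0.65. Scarb1 gained a call with array weights (0.29), brighter genes only (0.30), the intensity trend (0.30) and quantile normalization (0.31), and ranged from 0.25 to 0.34 without 1 array. Lcat ranged from -0.000401 to 0.05 without 1 array, turning its sign without HFD replicate 1. Without 1 array the change of Abcg5 minus Abcg8 ranged from -0.0328 to 0.0791, of Abcg5 minus Abcg1 from -0.0713 to 0.0435 and of Abcg8 minus Abcg1 from -0.0995 to 0.0669, and that of Abcg5 minus Abcg1 was 0.0162 after quantile normalization. Higher and lower genes in all numbered 621 and 446, but 318 and 245 with the replicate block and 41 and 58 with the unmoderated model. Without 1 array they numbered 197 to 371 and 178 to 273, where fewer arrays were fitted. With brighter genes only they numbered 862 and 619, and with the intensity trend 850 and 615. With every row tested, 168 and 173 of 35512 probe sets were called, a count of probe sets and not of genes. Otherwise the cause of these shifts was not tested. Of 270 counts of the other pathway lists under an alternative, 236 lay within 1.5 times their value and 34 did not, 32 of them lower. A count of 0 that stayed 0 was put within 1.5 times, and most of the 236 were of this kind. The count of rises lay within 1.5 times under 7 of 15 alternatives for the other LXR target genes. For the other ABCG and ABCA transporters it did so under 6 of 15. With the unmoderated model no called gene of the other pathway lists kept its call. Their adjusted p in that model ran from 0.056 for Cyp7a1 to 0.239 for Srebf1. Whether the shared replicate numbers pair the arrays could not be decided from these values. Deviations of same-numbered arrays from their diet means correlated over genes at -0.11, 0.00 and 0.12 for replicates 1, 2 and 3. HFD replicates 1 and 2 correlated best with another number (0.11 and 0.13), and HFD replicate 3 with its own. Deviations of 3 arrays per diet sum to 0, so these correlations cannot exclude a pairing. The block result is given above. The number of arrays limits precision, and signal over background was not available here.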
